A study of Mus musculus with 6 samples.

Results

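Autophagy was examined through 10 genes of autophagosome formation, taken by symbol from a table of 22482 protein-coding genes measured in cultured mouse aortic vascular smooth muscle cells. They are the LC3 genes Map1lc3a and Map1lc3b, the GABARAP genes Gabarap, Gabarapl1 and Gabarapl2, and Ulk1, Becn1, Wipi1, Atg5 and Sqstm1. All 10 had 1 row in the table and all 10 were expressed highly enough to be tested. The cells were of the C57BL/6 strain, grown in medium with serum. Per the labels, 3 libraries came from cells given adenovirus for Myocd knockdown and 3 from cells given negative control adenovirus, each for 48 h. In the design text the comparison group is wildtype cells, so whether it received virus is not certain, and effects of virus and of Myocd then cannot be told apart. The sources used here do not give the age of the mice, the way the adenovirus acts on Myocd or whether replicate libraries stem from separate cultures. The p-values therefore rest on library-to-library spread that may be technical.

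Macroautophagy encloses cytoplasm in a double membrane, the autophagosome, and delivers it to the lysosome. The ULK1 kinase complex starts the process, the Beclin 1 complex makes the lipid signal PI3P, WIPI proteins read that signal, and a conjugation system containing ATG5 attaches LC3 and GABARAP proteins (the Atg8 family) to the growing membrane. There they bind cargo receptors such as p62, the product of Sqstm1. In smooth muscle, autophagy is studied for its part in the switch between contractile and proliferative states and in vascular disease.

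The labels were checked on Myocd, the coactivator of smooth muscle genes, and the check went against them. Myocd stood at 131.7, 130.1 and 145.5 FPKM (read fragments normalised for transcript length and library depth) in the knockdown-labelled libraries and at 0.0355, 0 and 0.125 FPKM in the control-labelled ones. Libraries are therefore called by their labels, and "rose" means higher in the knockdown-labelled libraries, where Myocd was higher. The depth over protein-coding genes was 7528153 to 9793781 recovered fragments a library. Of 8 smooth muscle markers 5 averaged at least 0.5 FPKM, while Myh11 and Cnn1 stayed under that level in all 6 libraries. The summed level of the smooth muscle list was 519.2 to 546.6 FPKM in the knockdown-labelled libraries and 228.7 to 253.6 in the control-labelled ones. Most of that difference was Acta2, which averaged 340.2 against 67.2 FPKM. Tagln (7.52 against 0.637) and Lmod1 (0.733 against 0.0774) averaged higher as well, at lower levels. So did Cnn1 (0.275 against 0.027) and Myh11 (0.0604 against 0.0132), near the floor. Smtn (56.5 against 57.6), Mylk (7.74 against 7.31) and Des (124.0 against 108.0) differed little, and limma called 3 of the 8. Mesothelial or epithelial markers were also present, at 302.0 to 324.7 and 319.6 to 352.3 FPKM, nearly all of it Krt19 and Msln, whereas Epcam was at 0. The fibroblast list summed to 59.5 to 70.7 and 59.7 to 70.2 FPKM, with 4 of 5 genes averaging at least 0.5 FPKM, and the pericyte list to 5.91 to 6.60 and 6.07 to 6.52 FPKM, with Kcnj8 at 0. The macrophage list summed to 20.6 to 24.5 and 22.4 to 26.4 FPKM, with 3 of the 5 genes found (Cd14, Cd68 and Lyz2) at that level and Ptprc and Csf1r under it. The endothelial list was separated between the groups, at 1.30 to 2.34 and 0.447 to 1.01 FPKM. There Vwf was called higher by limma (1.24 against 0.185 FPKM), the other 5 genes were under 0.5 FPKM and Emcn was at 0. The 3 T cell markers found were at 0. In bulk RNA such as this, a change in the cells present and a change in RNA per cell cannot be told apart. The part of these markers in the autophagy results was not tested.

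Map1lc3a and Gabarap rose in the knockdown-labelled libraries, and the other 8 genes did not pass the test. Map1lc3a was 1.74-fold and Gabarap 1.19-fold higher. The test was limma on log2(FPKM + 0.1) across 11612 genes, with Benjamini-Hochberg adjustment over all of them, and 1.83% of those genes were called higher and 1.61% lower. None of the 10 genes was called lower by limma. At an unadjusted limma p under 0.05, 4 of the 10 were higher and 1 (Becn1) was lower. The share of all genes at that cutoff was not counted. EdgeR and DESeq2 on fragments called 0 lower as well, where they called 4.5% and 3.32% of all genes lower. The median log2 fold change of the 10 was 0.081, beside -0.010 for all genes tested. In 4 of the 10 (Map1lc3a, Gabarap, Sqstm1 and Atg5) every knockdown-labelled library was above every control-labelled library, and in 1 (Becn1) every one was below. Over all tested genes the groups were separated in this way for 13.3% upward and 15.6% downward.

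**Figure D1:**
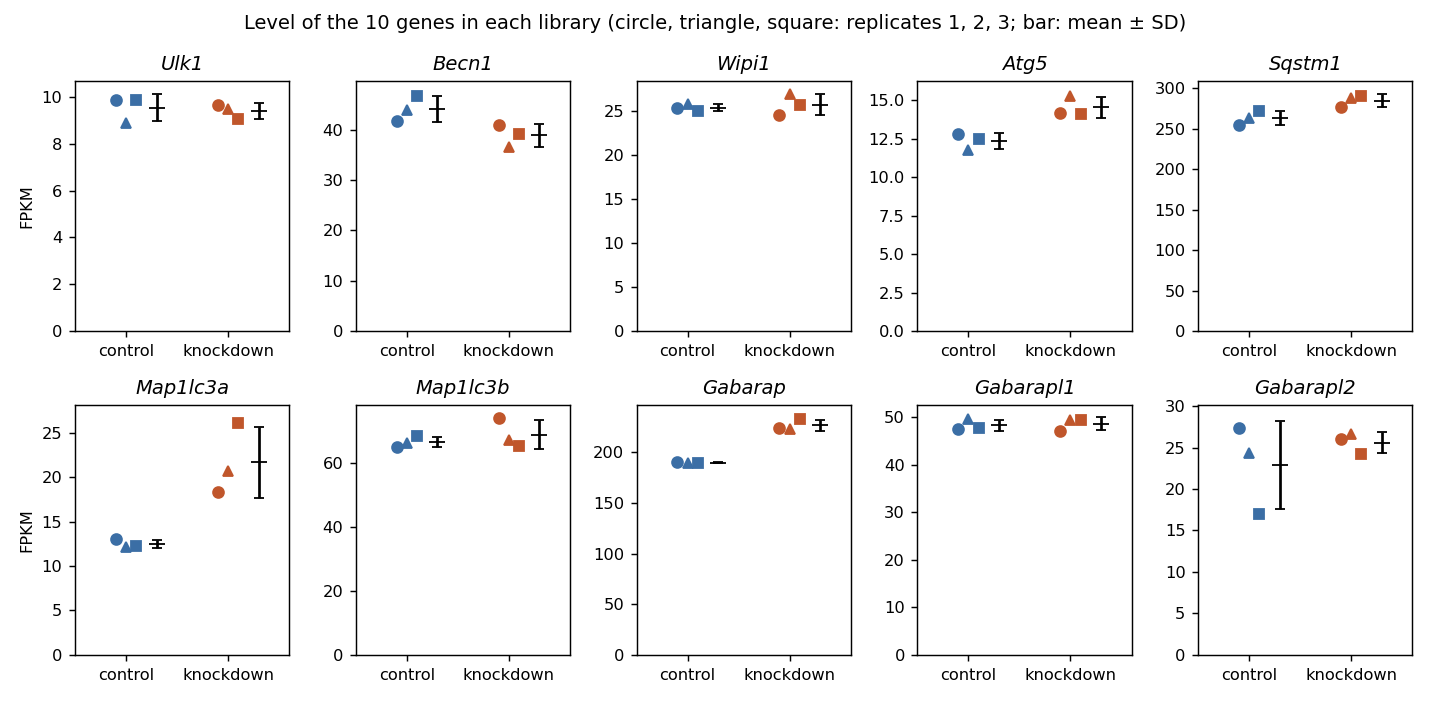
Level in FPKM (vertical axes, from 0) of each gene in the 3 libraries labelled control (blue) and the 3 labelled knockdown (orange), with the mean ± SD in black. The orange points of Map1lc3a (18.3 to 26.1 FPKM) and Gabarap (223.0 to 233.2) lie above all blue points, while those of Gabarapl1 and Wipi1 overlap them.

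The 10 genes spanned a wide range of levels. On the FPKM scale, which is per length, and averaged over the 6 libraries, Sqstm1 (274.2) and Gabarap (208.4) stood highest, at the 98.2 and 97.5 percentiles of tested genes. Map1lc3b (67.9), Gabarapl1 (48.5) and Becn1 (41.5) followed. These 5 did not overlap with their neighbours in this order over the 6 libraries. The ranges of Wipi1 (25.5), Gabarapl2 (24.2), Map1lc3a (17.1) and Atg5 (13.5) overlapped from each gene to the next. Ulk1 was lowest, at 8.87 to 9.87 FPKM and the 38.9 percentile. The most abundant GABARAP transcript was thus far above the most abundant LC3 transcript in each library, since the lowest value of Gabarap was 189.6 FPKM and the highest of Map1lc3b 74.2.

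Ulk1 encodes the kinase that starts autophagosome formation and is held in check by mTORC1 and activated by AMPK. Its RefSeq position on GRCm38.p6, the build of all gene positions here, is chromosome 5, 110784489 to 110810120, minus strand. Its level was 9.67, 9.48 and 9.04 FPKM in the knockdown-labelled libraries and 9.86, 8.87 and 9.87 in the control-labelled ones. The groups overlapped, and the log2 fold change was -0.02 (95% interval -0.21 to 0.17, limma adjusted p = 0.911). With 415 to 589 fragments per library, the interval leaves room for a change of that size in either direction.

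Becn1 encodes Beclin 1, the scaffold of the class III PI3-kinase complex, and is found at chromosome 11, 101288258 to 101302286 (minus strand). It was the 1 gene of the set with all knockdown-labelled libraries (41.0, 36.5 and 39.1 FPKM) below all control-labelled libraries (41.7, 43.9 and 46.8). The gap between the nearest libraries, 41.0 and 41.7, was smaller than the SD of either group (2.25 and 2.55). Becn1 did not pass (log2 fold change -0.18, SE 0.07, 95% interval -0.34 to -0.03, limma adjusted p = 0.161). On recovered fragments, the count columns divided back to fragment numbers, the difference was smaller, at -0.07 (edgeR adjusted p = 0.397).

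Wipi1 encodes a protein that binds PI3P on the forming membrane, and is found at chromosome 11, 109573521 to 109611389 (minus strand). It was at 24.5, 26.9 and 25.7 FPKM in the knockdown-labelled libraries and 25.3, 25.8 and 25.0 in the control-labelled ones. The groups overlapped and the log2 fold change was 0.02 (95% interval -0.11 to 0.15, limma adjusted p = 0.861).

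Atg5 encodes the partner to which ATG12 is joined in the complex that lipidates LC3 and GABARAP. Its gene record lies on the plus strand of chromosome 10 from 44268322 to 44364299, while the RefSeq promoter table places a transcript start inside that record, at 44268339. Its level was 14.2, 15.3 and 14.1 FPKM in the knockdown-labelled libraries and 12.8, 11.8 and 12.5 in the control-labelled ones. The groups did not overlap, yet the difference did not pass (log2 fold change 0.23, SE 0.07, 95% interval 0.06 to 0.40, limma adjusted p = 0.120). The same was found on 278 to 354 fragments per library with edgeR (log2 0.24, adjusted p = 0.0709) and DESeq2 (log2 0.24, adjusted p = 0.244). The sequence before that transcript start is shown because a noncoding transcript begins there and because it holds the single CACGTG found among the promoters searched. Other forms of the E-box were not searched. The 250 bases before the start at 44268339, chr10:44268089-44268338 on the plus strand of GRCm38.p6, read as follows, with the E-box CACGTG in capitals.
Atg5: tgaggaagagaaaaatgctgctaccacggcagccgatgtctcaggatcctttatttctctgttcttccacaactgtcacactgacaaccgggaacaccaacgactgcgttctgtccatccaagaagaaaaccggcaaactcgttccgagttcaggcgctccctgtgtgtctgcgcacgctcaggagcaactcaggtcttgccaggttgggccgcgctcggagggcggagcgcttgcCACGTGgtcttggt
That motif begins 14 bases before the transcript start, at 44268325 to 44268330, which is within the gene record. In the deposited lncRNA table, AK138195, on the opposite strand, is paired head to head with Atg5. Its first base, 44268334, is separated by 4 bases from the transcript start at 44268339 but lies inside the gene record that begins at 44268322, and the E-box lies within AK138195. AK138195 was at 0.501, 0.759 and 0.847 FPKM in the knockdown-labelled libraries and 0.926, 1.47 and 0.906 in the control-labelled ones. All 3 knockdown-labelled libraries were lower, on only 2 to 6 fragments per library, and the difference did not pass (log2 -0.58, 95% interval -1.38 to 0.23, limma adjusted p = 0.470 over 4955 lncRNA transcripts, of which 4.26% were called).

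Sqstm1 encodes p62, the cargo receptor that links ubiquitinated proteins to LC3 and is itself degraded by autophagy, and it is a target of the antioxidant factor NRF2. Its position is chromosome 11, 50200152 to 50210820, minus strand. Its level was 276.6, 287.6 and 290.9 FPKM in the knockdown-labelled libraries and 255.0, 263.4 and 271.5 in the control-labelled ones. The groups did not overlap, with a log2 fold change of 0.11 (SE 0.04, 95% interval 0.02 to 0.21) that did not pass in limma (adjusted p = 0.155). Sqstm1 was the deepest of the 10, with 4534 to 5302 fragments per library. On those fragments edgeR called it higher (log2 0.13, adjusted p = 0.0224), as did DESeq2 (log2 0.13, adjusted p = 0.00926), where edgeR called 5.45% of genes higher and DESeq2 4.1%. Limma on log2 CPM, an alternative added after seeing the data, called it too (adjusted p = 0.0191). CPM there is the fragments scaled to library totals adjusted by edgeR's scaling factors, with a small prior count. The fits on fragments thus called Sqstm1 and limma on FPKM did not. These fits differ in scaling and filter as well as in unit, and the cause was not tested. Its 250 bases before the start, on the minus strand at chr11:50210821-50211070, are shown because the antioxidant response element is the motif this gene is known for, and no letters are in capitals since none of the motifs searched was found in this window. Sequence further from the start was not searched, so an element there would be missed.
Sqstm1: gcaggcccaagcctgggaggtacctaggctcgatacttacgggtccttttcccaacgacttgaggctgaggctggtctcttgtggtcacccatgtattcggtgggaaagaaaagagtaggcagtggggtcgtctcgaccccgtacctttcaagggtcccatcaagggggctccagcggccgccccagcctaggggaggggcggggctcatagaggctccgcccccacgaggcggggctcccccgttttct

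The LC3 genes differed from each other. Map1lc3a lies on the plus strand of chromosome 2 from 155276364 to 155278073 and Map1lc3b, the form most used as an autophagy marker, on the plus strand of chromosome 8 from 121590438 to 121598760. Map1lc3a was at 18.3, 20.7 and 26.1 FPKM in the knockdown-labelled libraries and at 13.0, 12.1 and 12.3 in the control-labelled ones, with means of 21.7 ± 4.03 and 12.5 ± 0.483 (SD, n = 3 each). No library of the first group reached down to the second, and the first group was the more spread, with a coefficient of variation of 18.6% against 3.9%. The log2 fold change was 0.78 (SE 0.13, 95% interval 0.48 to 1.08, limma adjusted p = 0.0270).

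Map1lc3b was at 74.2, 67.4 and 65.6 FPKM in the knockdown-labelled libraries and at 65.3, 66.3 and 68.6 in the control-labelled ones. The groups overlapped and the log2 fold change was 0.05 (95% interval -0.08 to 0.18, limma adjusted p = 0.651). The log2 ratio of Map1lc3a to Map1lc3b, which does not depend on how libraries are scaled, was -2.02, -1.71 and -1.33 in the knockdown-labelled libraries and -2.33, -2.45 and -2.48 in the control-labelled ones. It was higher in each of the 3, by 0.73 on average (0.53 on fragments), with p = 0.1 in an exact two-sided permutation test, the lowest value this design can give. In the deposited table the Map1lc3b row covers 4435365 bases, far more than the gene. How any fragments that match more than 1 place were shared out is not stated in the labels or headers.

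The size of the Map1lc3a rise depended on the unit. Recovered fragments of Map1lc3a were 129, 143 and 165 in the knockdown-labelled libraries and 107, 105 and 118 in the control-labelled ones, the fewest of the 10 genes. Scaled to a common library total alone (CPM without edgeR's scaling factors), this is 14.1, 16.0 and 21.9 against 10.9, 11.3 and 12.7. The groups still did not overlap, with a log2 fold change of 0.59 in edgeR (adjusted p = 0.0392) and 0.59 in DESeq2 (adjusted p = 0.0536). The FPKM given per CPM unit was 1.29, 1.29 and 1.19 in the knockdown-labelled libraries but 1.19, 1.07 and 0.969 in the control-labelled ones. The highest of these was 1.33 times the lowest, at the 87.9 percentile of 9704 genes with at least 50 fragments in every library, where the median gene had 1.07. On average the ratio was 0.23 higher on the log2 scale in the knockdown-labelled libraries. With 1 library left out, limma called Map1lc3a without knockdown 1 (adjusted p = 0.0413) or knockdown 3 (0.0374) and not without knockdown 2 (0.0888), control 1 (0.0869), control 2 (0.0978) or control 3 (0.0754).

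**Figure D2:**
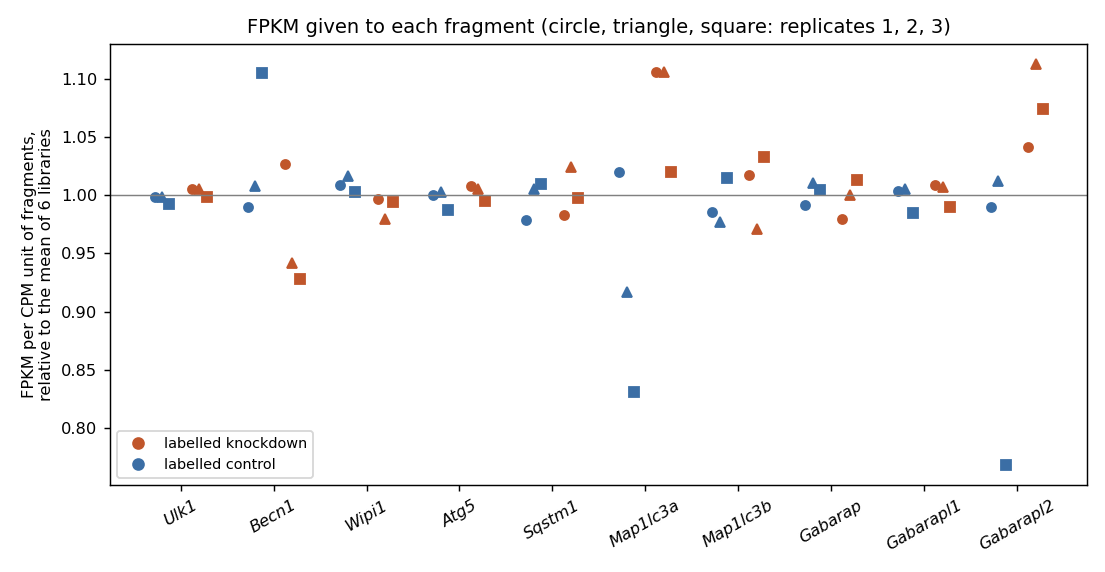
FPKM per CPM unit in each library, divided by the mean of the 6 libraries, for each gene (blue: labelled control, orange: labelled knockdown; the vertical axis does not start at 0). Most genes stay near 1, while Map1lc3a, Gabarapl2 and Becn1 spread by 1.33, 1.45 and 1.19 times from lowest to highest library.

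Among the GABARAP genes Gabarap alone passed. Gabarap encodes a protein of the Atg8 family first known for binding the GABA-A receptor, and lies on the plus strand of chromosome 11 from 69991370 to 69994949. It was at 223.9, 223.0 and 233.2 FPKM in the knockdown-labelled libraries and at 190.8, 189.7 and 189.6 in the control-labelled ones, with means of 226.7 ± 5.64 and 190.0 ± 0.651 (SD, n = 3 each). All 3 knockdown-labelled libraries were above all 3 labelled control, and the libraries of the second group lay very close together. The log2 fold change was 0.25 (SE 0.04, 95% interval 0.17 to 0.34, limma adjusted p = 0.0170). On 2044 to 2458 fragments per library edgeR gave 0.28 (adjusted p = 0.00069) and DESeq2 0.28 (adjusted p = 1.10e-06). With 1 library left out, limma called it without knockdown 3 (adjusted p = 0.0427) or control 3 (0.0457) and not without knockdown 1 (0.0654), knockdown 2 (0.0682), control 1 (0.0756) or control 2 (0.0776). Its 250 bases before the RefSeq start, chr11:69991120-69991369 on the plus strand of GRCm38.p6, are shown as those of the most clearly changed gene for which a promoter was at hand, and none of the motifs searched was found, so no letters are in capitals. The deposited Gabarap row begins at 69991143, so most of these bases lie within it.
Gabarap: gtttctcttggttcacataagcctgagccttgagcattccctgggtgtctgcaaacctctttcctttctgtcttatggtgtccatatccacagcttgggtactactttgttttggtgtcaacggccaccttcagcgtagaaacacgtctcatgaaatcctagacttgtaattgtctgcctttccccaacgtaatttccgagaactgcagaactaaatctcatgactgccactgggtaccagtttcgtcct

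Gabarapl1 and Gabarapl2 (also GATE-16) encode the other GABARAP proteins, which act late in autophagosome formation and, for GATE-16, in Golgi traffic. Gabarapl1, on the plus strand of chromosome 6 from 129533192 to 129542331, was at 47.2, 49.4 and 49.5 FPKM in the knockdown-labelled libraries and at 47.5, 49.7 and 47.8 in the control-labelled ones. The groups overlapped, and with a log2 fold change of 0.01 (limma adjusted p = 0.902) the 95% interval of -0.10 to 0.12 excluded a change as large as that measured for Gabarap. The log2 ratio of Gabarap to Gabarapl1 was 2.24, 2.17 and 2.24 in the knockdown-labelled libraries and 2.01, 1.93 and 1.99 in the control-labelled ones. The difference of 0.24 had an exact two-sided permutation p of 0.1, the smallest the design allows.

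Gabarapl2, on the plus strand of chromosome 8 from 111940703 to 111952915, was at 26.0, 26.6 and 24.2 FPKM in the knockdown-labelled libraries and at 27.3, 24.3 and 17.0 in the control-labelled ones. Control 3 was low and the other 5 libraries overlapped. The log2 fold change of 0.19 (95% interval -0.19 to 0.57, limma adjusted p = 0.529) came to -0.01 without control 3. CPM did not show the low library as strongly, at 33.0, 31.6 and 29.8 against 36.5, 31.7 and 29.2, and edgeR gave -0.02 (adjusted p = 0.906). In control 3 the FPKM per CPM unit was 0.581, against 0.749 to 0.842 in the other libraries.

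**Figure D3:**
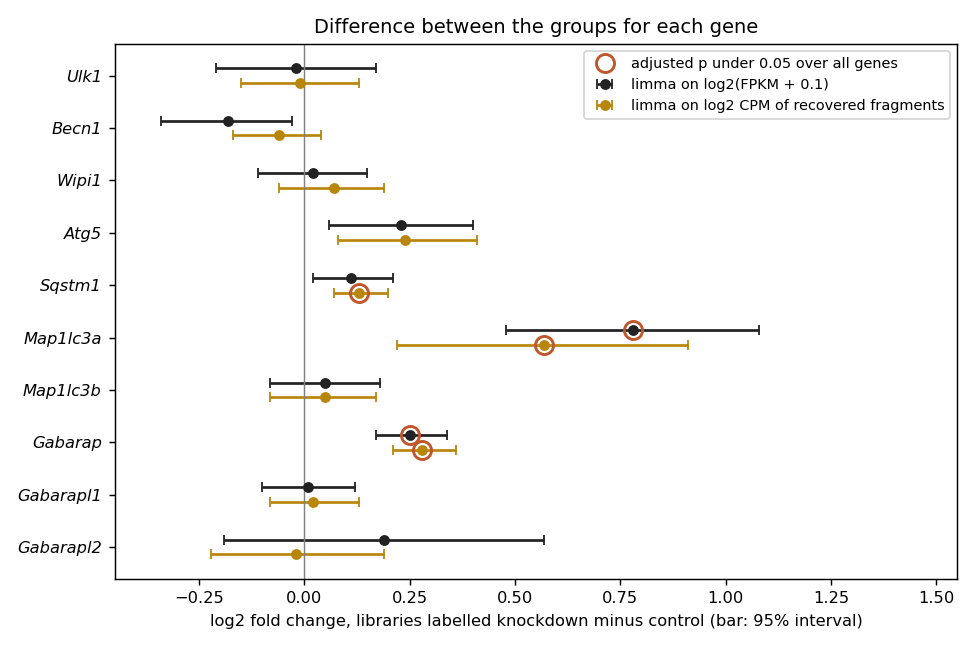
Log2 fold change (horizontal axis, labelled knockdown minus labelled control) with its 95% interval for each gene, from limma on log2(FPKM + 0.1) in black and from limma on log2 CPM of recovered fragments in gold, with calls ringed. Map1lc3a (0.78 and 0.57) and Gabarap (0.25 and 0.28) are ringed in both, Sqstm1 in the second alone, and Gabarapl2 sits at 0.19 and -0.02.

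Summed over the LC3 and GABARAP genes, the Atg8 family stood at 389.6, 387.2 and 398.7 FPKM in the knockdown-labelled libraries and 343.9, 342.0 and 335.2 in the control-labelled ones. The sums did not overlap (exact two-sided permutation p = 0.1, the smallest possible). Most of the difference came from the called genes Gabarap (226.7 against 190.0 FPKM) and Map1lc3a (21.7 against 12.5). The FPKM of Map1lc3b, Gabarapl1 and Gabarapl2 overlapped between the groups. Gabarap made up the largest share in each library, 57.9% ± 0.553 and 55.8% ± 0.621 (SD, n = 3). Map1lc3a had the smallest share in 5 of 6 libraries, 5.53% ± 0.946 against 3.66% ± 0.123, the exception being knockdown 3, where it reached 6.56% and Gabarapl2 6.08%. Gabarapl1 had a lower share in each knockdown-labelled library, 12.4% ± 0.321 against 14.2% ± 0.358, though its own FPKM overlapped. Map1lc3b (17.6% against 19.6%) and Gabarapl2 (6.54% against 6.70%) overlapped. For the 3 shares whose groups were separated, the exact permutation p was 0.1 each (0.167 adjusted over the 5 shares), so none could pass a threshold of 0.05.

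**Figure D4:**
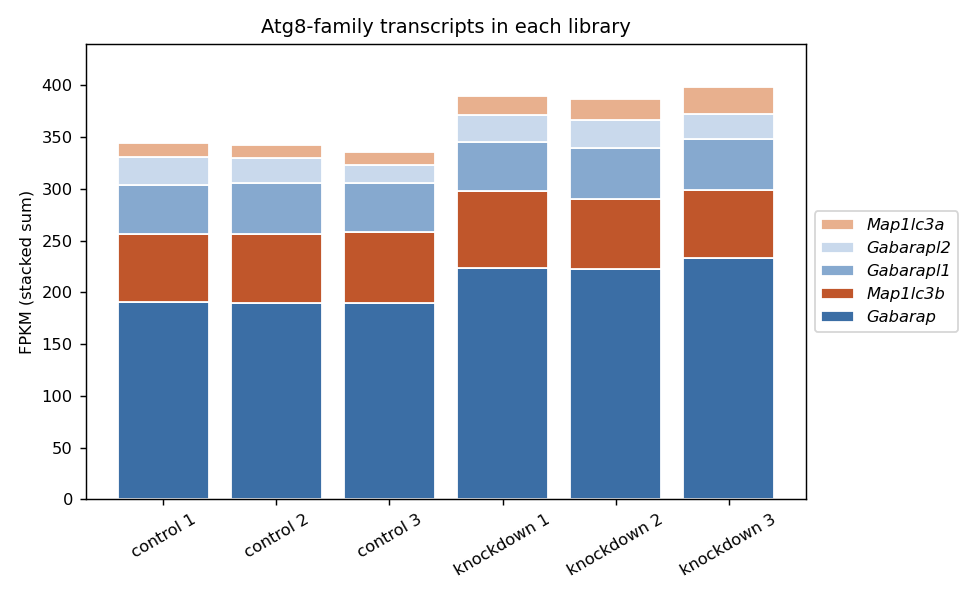
Stacked FPKM of the 5 Atg8-family genes in each library (vertical axis from 0; blue shades: GABARAP genes, orange shades: LC3 genes). The sums of the knockdown-labelled libraries (387.2 to 398.7) exceed the control-labelled ones (335.2 to 343.9), with Gabarap as the largest block in each.

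The promoters of 8 of the 10 genes were present in a RefSeq table of GRCm38.p6, as 250 bases before and 50 after the start. Both strands were searched for 4 motifs: the E-box core CACGTG, its longer form TCACGTGA, which contains it and is bound by the lysosome and autophagy factor TFEB, the antioxidant response element core TGACNNNGC, and the CArG box bound by SRF, the partner of myocardin. CACGTG was found in 1 of 8 (Atg5), where 7.15% of 32851 promoters of that length hold it. TGACNNNGC was found in 1 of 8, in Map1lc3b from 4 bases after the start, and in 12.4% of all. TCACGTGA and the CArG box were in 0 of 8, and in 0.974% and 1.63% of all. The 250 bases before the start differed widely in composition. Gabarap had 46.4% G and C with 6 CpG pairs and Gabarapl1 46.8% with 12, where the medians of all promoters were 52.4% and 6, whereas Map1lc3b had 69.6% with 30 and Wipi1 67.2% with 19. These windows are set by the RefSeq starts. In the deposited table the Gabarap row begins at 69991143, so most of its window lies within the row. The windows of Gabarapl1 (row from 129532094), Map1lc3b and Wipi1 lie wholly within their rows.

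The deposited lncRNA table paired 8 transcripts with 5 of the 10 genes, and 3 were expressed highly enough to be tested. Limma called 0 of the 3, with 0 at an unadjusted p under 0.05, and no other tool was run on them. Beside AK138195 at Atg5, AK049819 shares exons with Gabarapl2 and was at 1.49, 1.88 and 1.98 against 1.20, 1.61 and 1.57 FPKM (log2 0.27, 95% interval -0.28 to 0.82, limma adjusted p = 0.625). AK077959 runs antisense to Map1lc3a and was at 0.295, 0.0859 and 0.0504 against 0.0780, 0.371 and 0.203 FPKM, on 1 to 9 fragments per library (log2 -0.40, 95% interval -1.75 to 0.95, limma adjusted p = 0.777). The groups of both overlapped. The kit marks strand, but whether counting used it is not stated in the labels or headers. The highest value of the antisense transcript, 0.371 FPKM, was small beside the lowest of Map1lc3a, 12.1 FPKM.

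The rest of the autophagy pathway was described with a list of 73 other genes in 7 roles, of which 72 were tested and Dapk1 was too low. Limma called 3 higher and 0 lower, against 1.83% and 1.61% of all tested genes, and 69 did not pass. At an unadjusted limma p under 0.05, 12 were higher and 5 lower, but the share of all genes at that cutoff was not counted. These numbers therefore show no lean of the list. The list's median log2 fold change was -0.001, beside -0.010 for all genes, and 36 of 72 were positive. On fragments edgeR called 10 higher and 0 lower, against 5.45% and 4.5% of all genes.

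Each of the 3 called genes was separated between the groups. Bnip3l, also Nix, a receptor that tethers mitochondria to LC3 and GABARAP, was at 223.4 ± 17.6 against 177.0 ± 9.09 FPKM (SD, n = 3; log2 0.33, limma adjusted p = 0.0427), but edgeR gave a smaller 0.14 on fragments (adjusted p = 0.0290). Vamp8, the lysosomal SNARE that fuses autophagosomes with lysosomes, was at 54.2, 54.9 and 52.0 against 45.5, 44.1 and 41.6 FPKM (log2 0.30, limma adjusted p = 0.0321), and it passed in edgeR (adjusted p = 0.0430) but not in DESeq2 (adjusted p = 0.172). Trp53inp1, a p53 target whose product binds LC3, was at 28.7 ± 1.81 against 22.7 ± 0.411 FPKM (log2 0.34, limma adjusted p = 0.0387). EdgeR (log2 0.36, adjusted p = 0.000761) and DESeq2 (log2 0.36, adjusted p = 1.07e-06) called it too. Limma with the replicate number as a block did not (adjusted p = 0.0666).

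In the initiation, PI3-kinase, phagophore growth and conjugation roles limma called no gene. At an unadjusted p under 0.05, initiation had 1 gene higher and 1 lower, PI3-kinase 0 and 1, phagophore growth 2 and 1, and conjugation 2 and 0. These counts have no share of all genes beside them, since none was counted at that cutoff. EdgeR called 2, 0, 2 and 0 higher in these roles. Among 4 initiation complex genes Rb1cc1, which encodes the FIP200 scaffold, was at 49.9 ± 2.38 against 43.4 ± 2.83 FPKM (limma adjusted p = 0.130; edgeR adjusted p = 0.00343), and the Atg101 row (9430023L20Rik) at 14.7 ± 1.09 against 16.9 ± 0.849 FPKM (limma adjusted p = 0.193). Among 8 genes of the class III PI3-kinase complex, with a median log2 fold change of -0.11, the catalytic subunit gene Pik3c3 was at 6.90 ± 0.398 against 8.07 ± 0.288 FPKM (limma adjusted p = 0.194) and Nrbf2 at 24.7 ± 0.263 against 27.0 ± 2.04 (limma adjusted p = 0.309). Among 11 genes of phagophore growth the lipid scramblase gene Atg9a was at 13.3 ± 1.36 against 9.24 ± 2.28 FPKM and Vmp1 at 167.6 ± 3.69 against 150.9 ± 11.4 (limma adjusted p = 0.128 and 0.182). EdgeR called both higher (adjusted p = 0.0342 and 0.0383). Among 10 genes of the conjugation machinery Atg7, the E1-like enzyme that activates LC3, was at 12.0 ± 1.17 against 8.02 ± 1.23 FPKM (log2 0.58, limma adjusted p = 0.0607), with 0.23 in edgeR (adjusted p = 0.180). Atg3, the E2-like enzyme, was at 17.5 ± 1.31 against 15.0 ± 0.408 FPKM (limma adjusted p = 0.153). The 8 fusion genes, of which limma called only Vamp8, had a median log2 fold change of 0.13, and 7 were positive. Positive genes were 2 of 4 in initiation, 3 of 8 in PI3-kinase, 5 of 11 in phagophore growth and 5 of 10 in conjugation. They were 7 of 14 among cargo receptors, 7 of 17 among regulators and 5549 of 11612 among all tested genes.

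**Figure D5:**
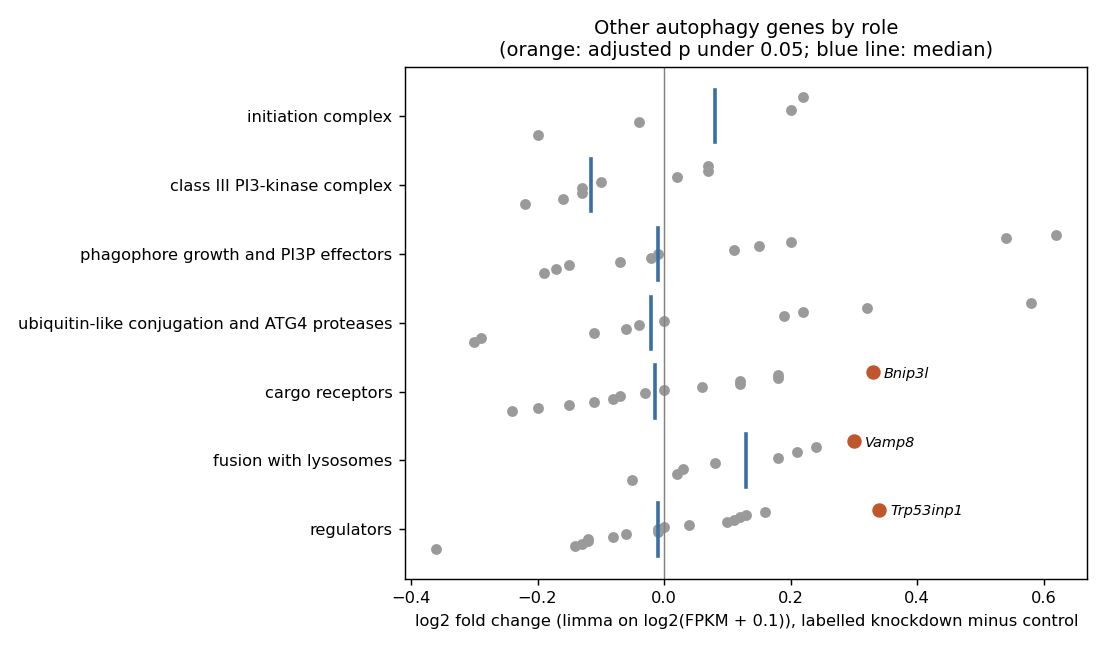
Log2 fold change (horizontal axis) of the 72 other autophagy genes tested, 1 point a gene, grouped by role on the vertical axis, with calls in orange and the median of each role as a blue line. The points lie on both sides of 0 in every role, and the 3 calls, Bnip3l, Vamp8 and Trp53inp1, are all above 0.

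The pattern of Map1lc3a over the 6 libraries was compared with 11169 other genes as a description. The most alike by Pearson correlation of log2(FPKM + 0.1) were Slc25a42 (0.995), Lrrcc1 (0.993), Inpp5j (0.991) and the proteasome subunit gene Psma4 (0.989). Of these 4 genes Psma4 (85.5 ± 3.77 against 71.7 ± 0.812 FPKM, limma adjusted p = 0.0350) passed. For the mean of the 5 Atg8-family genes they were A230050P20Rik (0.996), Pabpc1 (0.996), Gbgt1 (0.995), Fam21 (0.995) and Cnst (0.994). Of the 11169 genes, 380 and 387 exceeded 0.9, a looser cutoff than the values named. With only 6 libraries in 2 groups high correlations are easily reached, and no p-value was attached to them.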

How the data were processed

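RNA freed of ribosomal RNA was sequenced as stranded libraries, per the labels' protocols. The submitters' processing notes name HISAT2 2.0.4 and Cuffdiff 2.2.1 beside cutadapt and Cufflinks, and the builds mm10 and mm9 without roles. The authors deposited FPKM values and estimated counts for each library, per the file headers and the non-whole values. Each deposited count column is an estimated fragment number times a constant (0.916 to 1.20). Divided by it, 90.1% to 90.4% of values above 0 were within 0.01 of a whole number, and these recovered fragments were rounded. After adding 1 to the start, 6275 gene starts equal GRCm38 (mm10) RefSeq starts, against 472 without. Rows of 79 repeated symbols were summed.

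Genes with at least 0.5 FPKM (lncRNA transcripts 0.1) in at least 3 libraries were fitted with limma 3.58.1 (R 4.3.3) with an intensity trend on log2(FPKM + 0.1), with no covariate beside group, two-sided, and Benjamini-Hochberg adjustment over all features at 0.05. The pseudocount shrinks fold changes of low genes. EdgeR 4.0.16 and DESeq2 1.42.0 were run on rounded fragments as alternatives. Scripts were tested on simulated data. Replicates differed by more than sampling noise (chi-square per gene 2.40 to 5.85). Intervals are fit intervals. Beyond the 10 genes and Myocd, the genes named are every called pathway gene, up to 2 of smallest p in roles without a call, and the 5 of most similar pattern, of which 1 is not reported here. The members and lists were chosen with earlier results of these data known. Atg101 and Rubcn were matched by older symbols.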

Additional observations from a re-analysis of the deposited data

How the results depend on the processing

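The call count of 2 higher among the 10 genes stayed at 2 or 3 with 2 other pseudocounts, 2 other filters, 2 scalings, robust limma, edgeR in 3 forms, DESeq2 and limma on log2 CPM of fragments. Map1lc3a and Gabarap were both called in each of these except DESeq2, whose 2 calls were Gabarap and Sqstm1. It was 0 for limma without the trend, 0 without both replicate 3 libraries and 0 to 2 with 1 library left out. Map1lc3a ranged from 0.57 to 0.89 over 21 alternatives (adjusted p 0.0146 to 0.0978, called in 13) and Gabarap from 0.23 to 0.28 (adjusted p 1.10e-06 to 0.0791, called in 15). Sqstm1 was called in the 5 alternatives on fragments. Samples share only a replicate number: the deviations of same-numbered libraries correlated at 0.04, -0.00 and 0.10. With that number as a replicate block, limma called 1 of the 10 genes higher (Gabarap), with Map1lc3a at adjusted p = 0.0539, and edgeR 3. The 3 pathway genes called higher became 0 without the trend and 0 without both replicate 3 libraries, 0 to 1 with 1 library left out, 10 with edgeR, 9 with edgeR and no filter (without Vamp8), 12 with edgeR and the replicate block, 8 with DESeq2 (without Vamp8) and 10 with limma on log2 CPM; edgeR with the replicate block called 2 lower (Epg5 and Phb2). Calls over all tested genes, in either direction, moved in these settings too. They were 400 of 11612 in the main fit, 144 of 11612 without the trend and 76 of 11647 without both replicate 3 libraries. With 1 library left out they ran from 44 of 11797 to 178 of 11749. EdgeR called 1150 of 11563, edgeR with the replicate block 1717 of 11766 and limma with that block 243 of 11612. The causes were not tested.

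Signs changed for genes near 0. With 1 library left out the log2 fold change ran from -0.0043 to 0.08 for Map1lc3b, -0.0002 to 0.03 for Gabarapl1, -0.0090 to 0.33 for Gabarapl2, -0.07 to 0.0077 for Ulk1 and -0.01 to 0.05 for Wipi1. Gabarapl2 was at -0.02 with edgeR, with edgeR and the replicate block, with DESeq2 and with limma on log2 CPM, and at -0.03 with edgeR and no filter. Without both replicate 3 libraries Gabarapl1 was at -0.0072 and Ulk1 at 0.03. Ulk1 was at 0.0044 with median scaling and 0.02 with quantile normalization. The share of Map1lc3a in the family, 1.86 percentage points higher, was 0.87 on fragments, and that of Gabarap went from 2.03 to 3.77. Depth limits Map1lc3a, the gene with the fewest fragments of the 10, at 105 to 165 per library.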
